A study of Homo sapiens with 60 samples.

Results

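The 6 RNA-seq libraries described here hold the transcriptome of HCC827 cells at the end of a long exposure to osimertinib and 1 day after its removal. They were chosen by their column names in the table of estimated counts as the 3 short washout libraries and the 3 libraries of drug tolerant persister cells (DTP) of this line, 6 of the 60 libraries of the series. HCC827 is a lung adenocarcinoma line driven by an activating deletion in the kinase domain of the epidermal growth factor receptor gene (EGFR), and osimertinib is a covalent inhibitor of mutant EGFR. The series applied the same 5 arms to 4 EGFR-mutant lines (HCC827, PC9, H1975 and HCC2935), with 3 biological replicates per arm according to the labels.

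DTP cells were exposed to 500 nM osimertinib for 21 days and harvested at once. Short washout cells had the same 21 days in 500 nM osimertinib, a wash in PBS, and 24 h without drug. Long washout cells of HCC827 were kept without drug for 4 days, when growth had resumed. The parental cells spent 21 days in drug-free medium before 24 h of either DMSO (DMSO arm) or 500 nM osimertinib (acute arm). Every arm is a culture of the same line with no engineered change, and the labels do not say from how many cultures the surviving cells of a replicate were pooled.

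Active EGFR signals through RAS, RAF and MEK to the kinase ERK, which drives transcription of its own brakes. These include the DUSP phosphatases, which strip phosphate from ERK, and the Sprouty and SPRED proteins, which act upstream of it. ETV, EGR and AP-1 factors pass the ERK signal on to the cyclins and the cell cycle, and AKT, a further branch, keeps FOXO factors out of the nucleus. Persisters are cells that live through a drug at a slow or halted pace of division without a resistance mutation, and they are known for regaining drug sensitivity and growth once the drug is gone. The comparison of short washout with DTP cells addresses what changes in the transcriptome when the inhibitor is taken away.

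The 6 libraries held 17.75 to 25.07 M (mega) estimated counts, and 13888 to 14124 genes reached 10 counts in a library. Levels below are CPM, the counts scaled to a common library size, normalised by the trimmed mean of M values (TMM) over the 15 HCC827 libraries. All 8 epithelial markers tested (EPCAM, CDH1, CLDN4, CLDN7 and keratins) were at 1 CPM or more in every library, with sums of 3995 to 6810 CPM in DTP and 5746 to 6877 CPM in short washout. The leukocyte markers PTPRC, CD3E, CD14, ITGAM and LYZ were each under 1 CPM in all 6, and endothelial markers summed to at most 6.595 CPM. Of 6 fibroblast markers, 4 were at 1 CPM or more in all 6 libraries, with sums of 66.0 to 144 CPM in DTP and 88.6 to 163 CPM in short washout, against 13.8 to 25.7 CPM in DMSO. Those genes can also be expressed by carcinoma cells, and their part in the results was not tested. All 60 samples carry the same growth protocol text, which names NCI-H1975 cells only, while titles and cell line labels name the 4 lines. EGFR was at 4932 to 10017 CPM in the HCC827 libraries and at no more than 2001 CPM in any library of the other lines, on a common scale over all 60 libraries.

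No gene passed the test between short washout and DTP cells when the replicate number was left out of the fit. In edgeR's quasi-likelihood test, 0 of 14009 genes (0%) had an adjusted p under 0.05, and the smallest adjusted p was 0.99995. At an unadjusted p under 0.05 there were 197 genes (1.41%). DESeq2 also called 0 genes (214 at an unadjusted p under 0.05), and limma on log2 TPM called 0 (194 unadjusted). The log2 fold change, short washout minus DTP, had a median size of 0.10 over genes and a median standard error of 0.17. The 95% interval of the change lay within a 2-fold difference either way for 10904 genes (77.8%), and for the rest it did not exclude a 2-fold difference. A gene that misses the threshold is not shown to be the same in both arms.

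The same-numbered libraries of the arms were the most alike in replicates 1 and 3, but not in replicate 2. Pearson's r of log2(CPM + 1) between a short washout library and the DTP library of the same number was 0.987 to 0.992. Between libraries of the same arm it was 0.972 to 0.989, with a median of 0.974, and between other numbers of other arms 0.971 to 0.989. Short washout replicate 2 had an r of 0.98716 with DTP replicate 2, of 0.98875 with DTP replicate 3 and of 0.98873 with short washout replicate 3. These correlations are across genes, which are not independent replicates. Split by source, the spread of a gene over the 6 libraries lay in the replicate number for a median of 63.0%, in the arm for 7.59%, and in the remainder for 19.3%, with 2, 1 and 2 degrees of freedom. Deviations from the arm means correlated at 0.69, 0.40 and 0.51 in the same-numbered pairs, and each of these deviations correlated best with that of its own number. The replicate number was therefore also fitted as a block, which reduced the common biological coefficient of variation from 0.234 to 0.120.

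**Figure D1:**
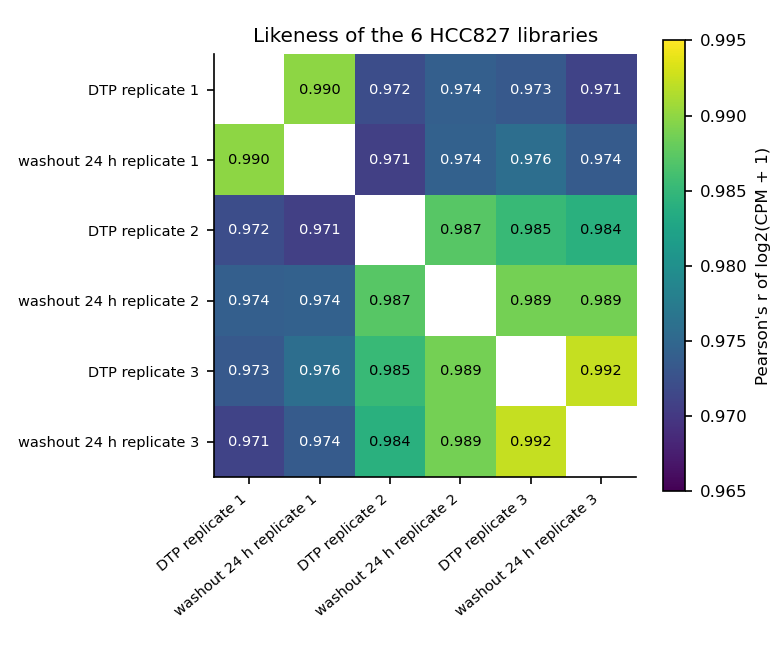
Heat map of the 6 HCC827 libraries against each other, rows and columns ordered by replicate number with DTP before 24 h washout, where colour and the printed value give Pearson's r of log2(CPM + 1) across genes. The same-numbered DTP and washout libraries reach 0.990, 0.987 and 0.992, and replicate 1 of both arms stands at 0.971 to 0.976 from all libraries of the other numbers.

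With the replicate block, 2 of 14009 genes (0.0143%) passed the test, and both fell. At an unadjusted p under 0.05 it gave 934 genes (6.67%), of which 477 (3.4%) were higher and 457 (3.26%) lower. C1R, which encodes a protease that starts the classical complement pathway, was at 16.3, 53.4 and 19.6 CPM in DTP replicates 1 to 3 and at 6.16, 14.8 and 7.50 CPM in short washout. Every short washout library was below every DTP library. The log2 fold change was -1.56 with an SE of 0.14 (95% interval -1.89 to -1.24, adjusted p = 0.0308 with the block), against -1.66 without the block (interval -2.88 to -0.43, unadjusted p = 0.0146). C1R overlaps another annotated gene on the same strand. S100A9, a calcium-binding protein of inflamed epithelia and myeloid cells, was at 0, 43.0 and 1.20 CPM in DTP and at 0, 4.05 and 0.164 CPM in short washout. Its pair 1 therefore carried no information, and the fall (log2 fold change -3.31, SE 0.29, adjusted p = 0.0314 with the block) rested on pairs 2 and 3. The arms overlapped for S100A9. Without replicate 2, the block fit called 0 genes (895 unadjusted), with an adjusted p of 0.123 as its smallest, while without replicate 1 it called 9 and without replicate 3 it called 40. With the block, DESeq2 called 16 genes, 9 of them higher and 7 lower, of which C1R was 1 and S100A9 was not.

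Several of those 16 genes and others that separated within pairs are named here after their values were seen. GPNMB, a glycoprotein of lysosomes and the cell surface, was at 84.5, 72.2 and 64.3 CPM in DTP and at 54.5, 42.9 and 47.2 CPM in short washout, so the arms did not overlap. Its log2 fold change was -0.62 (95% interval -0.95 to -0.28), and -0.61 with the block (adjusted p = 0.334 in edgeR). GDF15, a stress-induced secreted factor, was at 24.0, 28.1 and 18.3 CPM in DTP and at 13.6, 20.9 and 11.1 CPM in short washout. LCN2, an iron-chelating secreted protein, was at 35.0, 518 and 66.7 CPM in DTP and at 21.2, 137 and 32.5 CPM in short washout, lower in every pair although replicate 2 stood far above the others in both arms. PIGR, the transporter of polymeric immunoglobulins across epithelia, was at 1.42, 14.1 and 6.32 CPM in DTP and at 0.550, 6.08 and 0.492 CPM in short washout. In the other direction PEG10, a gene of retroviral origin, was at 258, 599 and 913 CPM in DTP and at 400.5, 1106 and 1073 CPM in short washout. DESeq2 with the block put GPNMB, PIGR and PEG10 past its threshold, and edgeR with the block did not.

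A difference of 2-fold or more in the same direction in all 3 pairs was rare. Of the 13201 genes whose mean over the 6 libraries reached 1 CPM, 7 were lower by that much (ASB2, C1R, C4BPA, HLA-DMB, PIGR, RNF183 and SERPINB4) and 4 were higher (AL139011.2, AL669918.1, KCNJ13 and the read-through gene TRIM6-TRIM34). Over all genes tested, 2048 (14.6%) were higher in all 3 pairs and 1933 (13.8%) were lower in all 3. In 385 genes (2.75%) every short washout library was above every DTP library, and in 424 (3.03%) every short washout library was below. These 4 shares are the background for the gene groups below.

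**Figure D2:**
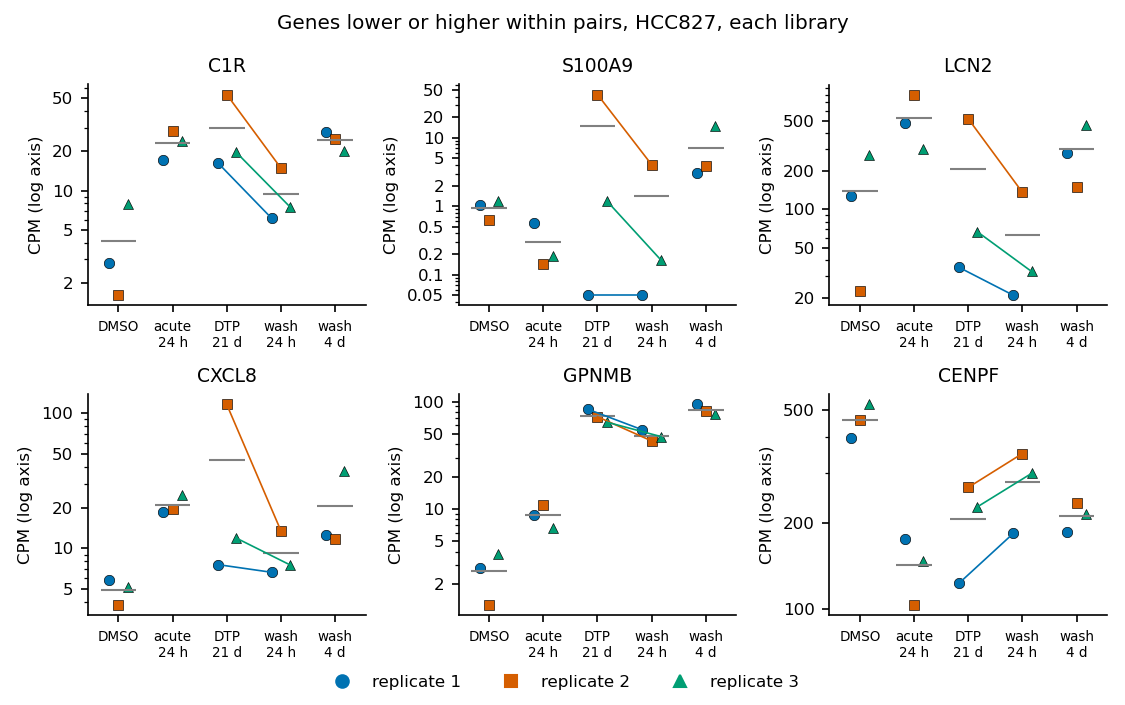
Levels of C1R, S100A9, LCN2, CXCL8, GPNMB and CENPF in the 15 HCC827 libraries by arm, in CPM on log axes; a point is a library, its shape and colour the replicate number, grey bars are arm means, lines join same-numbered DTP and short washout libraries, and values of 0 are drawn at 0.05. C1R runs from 16.3, 53.4 and 19.6 CPM in DTP to 6.16, 14.8 and 7.50 CPM in short washout, and the S100A9, LCN2 and CXCL8 libraries of replicate 2 stand above the other DTP libraries.

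The transcriptional output of ERK did not pass the test in any of its members 24 h after drug removal. Of the 10 feedback genes (DUSP4 to DUSP7, SPRY1, SPRY2, SPRY4 and SPRED1 to SPRED3), 0 of 10 were called, 8 had a negative and 2 a positive log2 fold change, and the median was -0.19 against 0.0007 over all genes tested. DUSP6, the phosphatase specific to ERK, was at 10.7, 26.1 and 9.88 CPM in DTP and at 5.39, 21.1 and 8.03 CPM in short washout. It was lower in short washout in every pair, but the arms overlapped. Its log2 fold change was -0.44 (95% interval -1.77 to 0.89), and -0.51 with the block (interval -0.90 to -0.12, adjusted p = 0.657). DUSP6 overlaps an annotated gene on the opposite strand, and reads of the pair cannot be told apart unless strand was counted, which no source used here says.

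SPRY1, an inhibitor of receptor signalling, was at 7.79, 16.998 and 7.29 CPM in DTP and at 3.96, 9.66 and 7.05 CPM in short washout. SPRY4, of the same family, was at 4.81, 4.18 and 2.68 CPM in DTP and at 5.77, 3.95 and 2.66 CPM in short washout, with overlapping arms. Its log2 fold change was 0.08 (95% interval -0.80 to 0.96). DUSP4, a nuclear phosphatase of ERK, was at 50.6, 42.0 and 34.8 CPM in DTP and at 50.3, 36.3 and 27.6 CPM in short washout. For DUSP5, DUSP7, SPRY2, SPRED1, SPRED2 and SPRED3 the log2 fold changes ran from -0.38 to 0.07, and the arms overlapped in each.

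DTP cells, still in the drug, held more DUSP6, SPRY4 and summed feedback transcripts than cells after 24 h of it, which was not tested. DUSP6 was at 17.6, 21.8 and 21.4 CPM in DMSO and at 1.17, 0.812 and 3.75 CPM after 24 h of osimertinib, so that all 6 DTP and short washout libraries lay above all 3 acute ones. SPRY4 was at 0.168 to 0.703 CPM in the acute arm, under every DTP and short washout library. Of the 10 feedback genes, 9 fell in the acute arm against DMSO, where 5817 of 13746 genes (42.3%) were called, 2780 higher (20.2%) and 3037 lower (22.1%), and 4695 (34.2%) with the replicate block. The summed level of the 10 was 210 to 312 CPM in DMSO, 99.6 to 122 CPM in the acute arm, 173 to 237 CPM in DTP and 150 to 203 CPM in short washout. On the fourth day without drug DUSP6 stood at 35.9, 28.5 and 24.7 CPM, above all short washout libraries (log2 fold change 1.38, SE 0.44, adjusted p = 0.769 in edgeR).

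**Figure D3:**
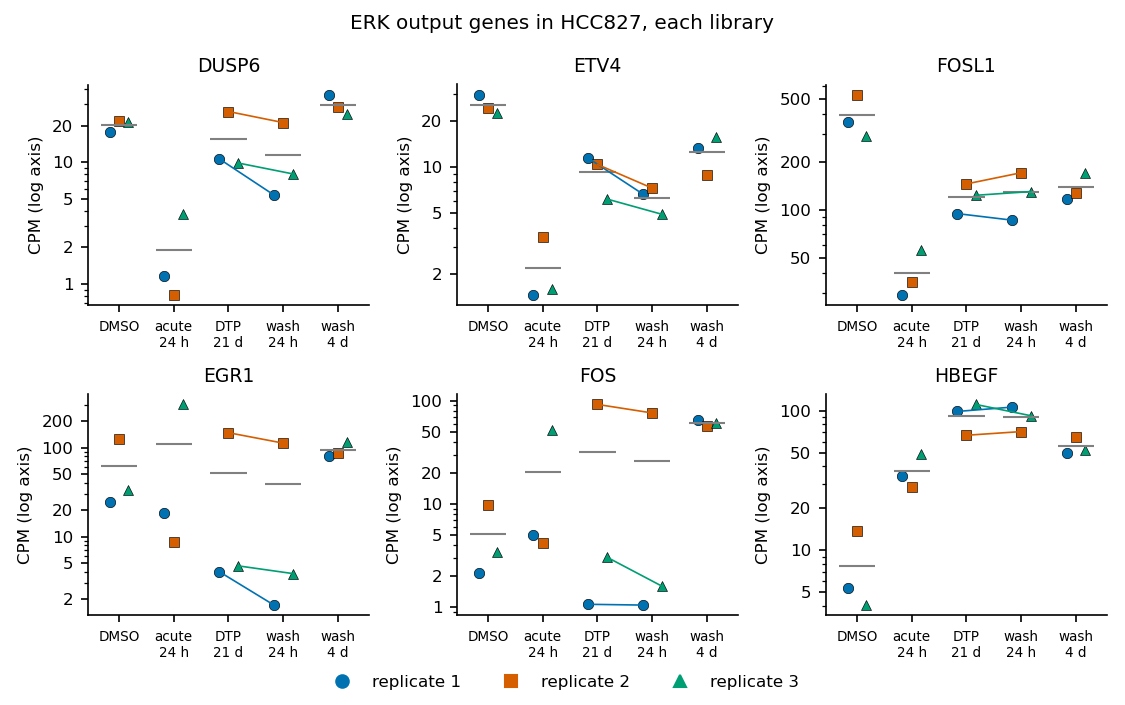
Levels of DUSP6, ETV4, FOSL1, EGR1, FOS and HBEGF in the 15 HCC827 libraries by arm, in CPM on log axes; a point is a library, its shape and colour the replicate number, grey bars are arm means, and lines join same-numbered DTP and short washout libraries. DUSP6 is at 9.88 to 26.1 CPM in DTP and 5.39 to 21.1 CPM in short washout, above the 0.812 to 3.75 CPM of the acute arm.

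A further list of ERK-dependent genes held ETV1, ETV4, ETV5, EGR1, IER2, IER3, PHLDA1 and CCND1 as its tested members, of which the first 4 are ETV and EGR factors. Of these 8, 0 were called, 6 were negative, and the median log2 fold change was -0.28, with 5 lower in all 3 pairs (13.8% over all genes). In pairs 1 to 3 the median was -0.43, -0.18 and -0.17, and it was -0.28 with the block. Without short washout replicate 3 it was 0.05, in a fit without the block that leaves pair 3 incomplete. ETV4, an ETS factor induced by ERK, was at 11.4, 10.4 and 6.18 CPM in DTP and at 6.65, 7.27 and 4.92 CPM in short washout. The lowest DTP library lay below the highest short washout libraries, and the log2 fold change was -0.58 (95% interval -1.25 to 0.10). ETV5, its close relative, went the other way in 2 of 3 pairs, at 16.6, 15.3 and 8.35 CPM in DTP and 13.4, 25.3 and 11.3 CPM in short washout. CCND1, the cyclin that opens the cell cycle, was at 285, 215 and 234 CPM in DTP and at 279, 270 and 213 CPM in short washout (log2 fold change 0.05, interval -0.30 to 0.40). It was at 52.6 to 76.7 CPM in the acute arm and at 276 to 526 CPM in DMSO. ETV4 overlaps an annotated gene on the opposite strand.

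EGR1 and FOS, immediate-early genes that answer a stimulus within minutes, differed more between replicates than between arms. EGR1 was at 4.05, 147 and 4.71 CPM in DTP and at 1.70, 112 and 3.85 CPM in short washout. Replicate 2 was the high library in both arms, and EGR1 was lower in short washout in every pair (log2 fold change -0.52 with the block, 95% interval -0.88 to -0.16, adjusted p = 0.657). FOS was at 1.06, 91.9 and 3.05 CPM in DTP and at 1.04, 76.0 and 1.60 CPM in short washout, with replicate 2 again far above the others. The same library was high for both genes in each arm, and EGR1 was at 80.7 to 116 CPM in all 3 long washout libraries. The EGR1 promoter is shown because serum response factor, through which ERK acts on immediate-early genes, binds CArG boxes. In the window from 250 bases before to 50 bases after the start site, searched on both strands, CArG boxes were found in EGR1, which was the only match among 5 promoters of the list with the ETV and EGR factors, and in 1.29% of 27305 promoters. Capitals mark the CArG boxes, which read as matches on both strands, in the stretch chr5:138465354-138465425 of GRCh38.p14 (plus strand, sequence from RefSeq).
EGR1: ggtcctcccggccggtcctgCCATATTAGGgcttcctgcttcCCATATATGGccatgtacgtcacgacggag

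Of 9 AP-1 factors tested, 0 were called and 8 were negative, with a median log2 fold change of -0.11. In pairs 1 to 3 the median was -0.04, -0.10 and -0.08, and it was -0.15 with the block. Lower in all 3 pairs were 4 of the 9 (13.8% over all genes). Without DTP replicate 2 the median was 0.0065, in a fit without the block that leaves pair 2 incomplete. FOSL1, the FOS relative that follows ERK activity closely, was at 94.8, 146 and 124 CPM in DTP and at 86.2, 172 and 130 CPM in short washout (log2 fold change 0.09, interval -0.51 to 0.69). Its acute level was 29.03 to 55.8 CPM and its DMSO level 293 to 533 CPM, so both arms lay between them. ATF3, an AP-1 factor of the stress response, was at 65.5, 85.9 and 34.8 CPM in DTP and at 59.4, 59.7 and 30.7 CPM in short washout. JUN was at 287, 262 and 248 CPM in DTP and at 278, 247 and 245 CPM in short washout, with a log2 fold change of -0.05 (interval -0.29 to 0.19).

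Of the 7 EGFR family ligands tested, 6 had a positive log2 fold change, with a median of 0.21, and 0 were called. BTC (betacellulin) was at 9.97, 8.11 and 9.09 CPM in DTP and at 14.1, 11.5 and 12.3 CPM in short washout, and the arms did not overlap. Its log2 fold change was 0.48 (95% interval 0.08 to 0.87, unadjusted p = 0.0242 in edgeR), and the fit with the block gave an adjusted p of 0.657. It was at 30.4 to 38.4 CPM in DMSO. HBEGF, a membrane-bound ligand, was at 99.0, 66.8 and 111 CPM in DTP and at 106, 71.0 and 92.3 CPM in short washout. These levels overlapped (log2 fold change -0.04, interval -0.55 to 0.47), and all were above the 4.04 to 13.7 CPM of DMSO. NRG1, a ligand of ERBB3 and ERBB4, was at 21.4, 41.2 and 45.9 CPM in DTP and at 32.3, 46.6 and 46.7 CPM in short washout, higher in every pair with overlapping arms. TGFA, AREG, EREG and EGF had log2 fold changes of 0.09 to 0.69 with overlapping arms.

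EGFR itself was at 5294, 5383 and 5456 CPM in DTP and at 5949, 5475 and 5497 CPM in short washout. The arms did not overlap by a narrow margin, and the log2 fold change was 0.07 (95% interval -0.15 to 0.28), under the 7591 to 10222 CPM of DMSO in both arms. Of the 11 genes for ERBB receptors and their inhibitors 0 were called, 5 were positive and 6 negative. ERRFI1, a feedback inhibitor that binds the EGFR kinase domain, was at 167, 207 and 135 CPM in DTP and at 140, 148 and 128 CPM in short washout, lower in every pair with overlapping arms. ERBB3 was at 80.3, 43.7 and 23.3 CPM in DTP and at 69.9, 60.5 and 27.3 CPM in short washout, and here the order followed the replicate number in both arms.

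The mitosis genes leaned one way together, although none was called. All 30 had a positive log2 fold change, between 0.04 and 0.51 with a median of 0.24, and 21 of 30 were higher in all 3 pairs (14.6% over all genes). With the block, 16 of 30 had an unadjusted p under 0.05 and a positive change (3.4% over all genes), with an adjusted p of 0.391 as the smallest. Genes of such a list are expressed by the same dividing cells and are not independent. In bulk RNA, a larger share of dividing cells and more of these transcripts per cell cannot be told apart.

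The sum of the 30 mitosis genes was 1651, 3106 and 2558 CPM in DTP and 1823, 3895 and 3126 CPM in short washout. It was higher in short washout in each pair, but replicate 1 of both arms lay below replicates 2 and 3 of both arms, and the replicate number was called for 29 of the 30 genes (15.3% over all genes). The acute arm was at 1170 to 1597 CPM, DMSO at 6145 to 6811 CPM, and long washout at 2102 to 2528 CPM. The median log2 fold change of the list was 0.10, 0.32 and 0.25 in pairs 1 to 3. In fits without the block that leave pair 2 incomplete, it was 0.0065 without short washout replicate 2 and 0.48 without DTP replicate 2.

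MKI67, the proliferation marker Ki-67, was at 115, 208 and 199 CPM in DTP and at 126, 285 and 261 CPM in short washout. It was higher in each pair with overlapping arms, and has a pseudogene that could share reads (log2 fold change 0.36, interval -0.42 to 1.13; with the block 0.32, interval 0.14 to 0.50, adjusted p = 0.657). CENPF, a kinetochore protein, was at 124, 267 and 229 CPM in DTP and at 184, 351 and 299 CPM in short washout. NCAPG, a condensin subunit, was at 31.1, 51.8 and 42.8 CPM in DTP and at 50.4, 71.4 and 57.3 CPM in short washout. CENPF and NCAPG were called by DESeq2 with the block, at log2 fold changes of 0.45 and 0.52. CDK1, the kinase that starts mitosis, was at 31.1, 53.7 and 37.9 CPM in DTP and at 36.8, 62.0 and 51.1 CPM in short washout.

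The promoters of 3 mitosis genes are printed because the list moved with 1 sign and many of its promoters share 2 short elements. TTTGAA, the cell cycle homology region to which the DREAM and MuvB complexes bind, was found on either strand in 62.5% of 24 promoters of the list and in 15.4% of 27305 promoters of the same length. CCAAT, the element of NF-Y, was found in 83.3% and 35.7%. The matches are letters in a window and not evidence of binding. The 3 printed stretches all hold TTTGAA, and that of NCAPG holds no CCAAT. Capitals mark TTTGAA and CCAAT, which do not overlap in these stretches. They are chr10:60778150-60778205 for CDK1, chr4:17810924-17810969 for NCAPG and chr15:59104896-59105142 for CCNB2 (cyclin B2), all on the plus strand of GRCh38.p14, from RefSeq.
CDK1: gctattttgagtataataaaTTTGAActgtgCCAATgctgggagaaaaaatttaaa
NCAPG: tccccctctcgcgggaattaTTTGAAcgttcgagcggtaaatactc
CCNB2: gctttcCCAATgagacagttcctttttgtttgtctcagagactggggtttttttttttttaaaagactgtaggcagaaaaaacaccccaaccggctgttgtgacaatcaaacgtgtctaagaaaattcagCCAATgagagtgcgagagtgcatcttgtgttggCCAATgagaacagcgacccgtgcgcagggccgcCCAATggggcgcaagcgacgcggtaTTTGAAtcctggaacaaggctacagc

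DNA replication genes leaned the same way by less. Of 32 tested, 0 were called, 31 were positive, the median log2 fold change was 0.15, and 11 were higher in all 3 pairs. Their sum was 1262, 1421 and 1285 CPM in DTP and 1224, 1648 and 1510 CPM in short washout, so that pair 1 went down while pairs 2 and 3 went up. MCM2, a subunit of the replicative helicase, was at 88.8, 70.6 and 71.7 CPM in DTP and at 85.1, 95.1 and 79.3 CPM in short washout (log2 fold change 0.16, interval -0.13 to 0.46). TYMS, which makes thymidylate, was at 42.1, 71.9 and 85.6 CPM in DTP and at 48.97, 92.7 and 98.4 CPM in short washout, higher in every pair. MCM6, of the same helicase, was at 62.0, 79.0 and 77.8 CPM in DTP and at 66.4, 87.1 and 81.4 CPM in short washout (log2 fold change 0.10, interval -0.23 to 0.43). Its promoter is printed because edgeR with the block, and not without it, called MCM6 in the difference from HCC2935 below. E2F elements, searched as TTTCCCGC or TTTGGCGC on both strands, were in 50% of 28 promoters of the list and in 2.31% of all promoters. Capitals mark them in chr2:135876506-135876615 (GRCh38.p14, minus strand, RefSeq).
MCM6: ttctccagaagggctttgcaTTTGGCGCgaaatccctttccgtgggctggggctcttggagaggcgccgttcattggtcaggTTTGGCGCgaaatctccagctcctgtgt

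Ribosome biogenesis genes had 22 positive log2 fold changes of 25 tested, with a median of 0.08 and 12 higher in all 3 pairs, and 0 were called. In pairs 1 to 3 their median was 0.10, 0.08 and 0.09. The interval of 24 of the 25 lay within a 2-fold difference. MYC, which drives this programme, was at 419, 501 and 366 CPM in DTP and at 378, 395 and 364 CPM in short washout.

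**Figure D4:**
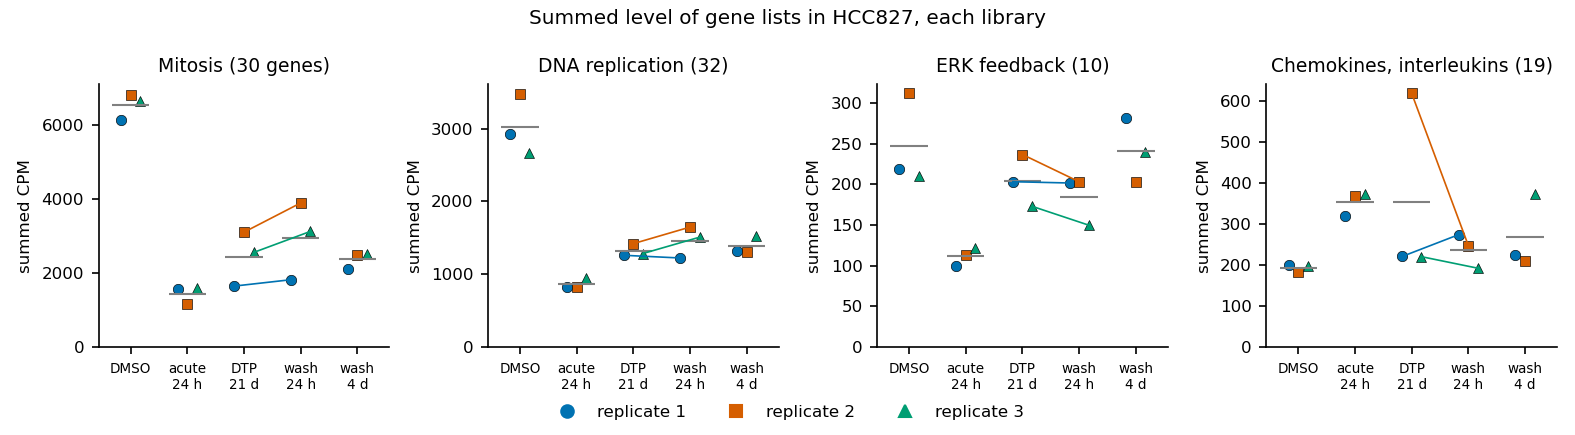
Summed levels of the mitosis, DNA replication, ERK feedback and chemokine and interleukin lists in the 15 HCC827 libraries by arm, in CPM; a point is a library, its shape and colour the replicate number, grey bars are arm means, and lines join same-numbered DTP and short washout libraries. The mitosis sum is 1651, 3106 and 2558 CPM in DTP and 1823, 3895 and 3126 CPM in short washout, below the 6145 to 6811 CPM of DMSO.

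FOXO factors and their targets, which are active when AKT is not, had 13 negative log2 fold changes of 16 and a median of -0.13, and 0 were called. BCL6, a transcriptional repressor under FOXO control, was at 45.6, 39.0 and 28.6 CPM in DTP and at 29.3, 24.7 and 26.5 CPM in short washout, lower in every pair (log2 fold change -0.50, interval -0.93 to -0.06, unadjusted p = 0.0306). TXNIP, a brake on glucose uptake, was at 197, 330 and 242 CPM in DTP and at 152, 198 and 229 CPM in short washout. All 8 BH3-only death genes were negative, with a median of -0.14, 5 of them lower in all 3 pairs and 0 called. BCL2L11, which encodes BIM, was at 53.0, 52.4 and 49.9 CPM in DTP and at 37.2, 45.8 and 44.0 CPM in short washout, with no overlap of the arms. Its log2 fold change was -0.29 (95% interval -0.56 to -0.03), and the fit with the block gave an adjusted p of 0.657.

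Chemokines and interleukins had the widest differences, and these were largest in pair 2. Of 16 tested, 11 were negative, the median log2 fold change was -0.75 and 0 were called. In pairs 1 to 3 the median was 0.06, -0.79 and -0.27, and it was -0.52 with the block. Lower in all 3 pairs were 6 of the 16 (13.8% over all genes). Without DTP replicate 2 the median was 0.13, in a fit without the block that leaves pair 2 incomplete. CXCL8 (interleukin 8) was at 7.59, 116 and 11.953 CPM in DTP and at 6.65, 13.5 and 7.54 CPM in short washout. CXCL1, a further neutrophil attractant, was at 5.26, 55.9 and 3.83 CPM in DTP and at 4.67, 8.11 and 3.03 CPM in short washout. Both were lower in every pair, and DTP replicate 2 was the library far above the rest. The leukocyte markers named above were under 1 CPM in that library too, and why it stood above the rest was not tested.

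Interferon-stimulated genes had 17 negative log2 fold changes of 21 tested, with a median of -0.18 and 0 called. In pairs 1 to 3 the median was -0.02, -0.09 and -0.23, and it was -0.18 with the block. Lower in all 3 pairs were 8 of the 21 (13.8% over all genes). Without DTP replicate 2 the median was 0.0009, in a fit without the block that leaves pair 2 incomplete. IFI27 was at 96.2, 177 and 171 CPM in DTP and at 97.3, 140 and 132 CPM in short washout. Lysosome and autophagy genes had 19 negative changes of 24, a median of -0.09 and 13 lower in all 3 pairs (13.8% over all genes), and 0 were called. Their sum was 6647, 7330 and 7229 CPM in DTP and 6397, 6483 and 6895 CPM in short washout, lower in each pair, against 3971 to 4197 CPM in DMSO. Cholesterol synthesis genes had 20 positive changes of 24 with a median of 0.06, and glycolysis genes had 11 positive of 20 with a median of 0.04. Their members HMGCS1 and SLC2A1 had log2 fold changes of 0.13 (interval -0.25 to 0.50) and 0.10 (interval -0.51 to 0.71). The other 15 lists, of cell cycle, MYC, stress, survival, adhesion and lineage genes, had medians from -0.11 (MHC class I presentation) to 0.12 (histones of S phase), with 0 called.

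The replicate number was called for 2141 of 14009 genes (15.3%) in the fit with the block, and some of these genes were named after their values were seen. MMP2, a matrix protease, was at 35.8, 4.61 and 3.51 CPM in DTP and at 44.7, 2.49 and 1.84 CPM in short washout. Replicate 1 was high in each arm. AXL, a receptor kinase, was the reverse, at 70.5, 191 and 262 CPM in DTP and at 93.0, 230 and 302 CPM in short washout. CDH1 (E-cadherin) was at 493, 215 and 177 CPM in DTP and at 490, 252 and 132 CPM in short washout. In both arms replicate 1 held more CDH1 and MMP2 and fewer mitosis transcripts than the other replicates. Same-numbered deviations of short washout with DMSO and long washout libraries correlated at -0.35 to 0.15.

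The genes that 24 h of drug had moved were set beside the washout, since acute and DMSO libraries are not among the 6. Of the genes that fell in the acute arm, 3032 were tested in both comparisons. Of these, 63.7% had a positive log2 fold change in short washout against DTP, against 50.3% of all 13454 genes. Higher in all 3 pairs were 22.6% of the 3032, against 14.1% of all. The median of the 3032 was 0.04. Of the 2736 that rose, 38.6% had a positive log2 fold change. Lower in all 3 pairs were 21.3% of the 2736, against 14.2% of all, and their median was -0.04. Across the 13454 genes the log2 fold changes of the comparisons had an r of -0.18, a description over genes that are not independent. Against the same acute changes of HCC827, r was -0.41 for the washout of PC9, -0.44 for that of H1975 and -0.40 for that of HCC2935.

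Short washout cells still stood far from untreated cells. Against DMSO, 4976 of 13887 genes (35.8%) were called, 2647 higher and 2329 lower, and 2125 of them by 2-fold or more. Lower were 30 of 32 DNA replication genes, 29 of 30 mitosis genes and 22 of 24 cholesterol synthesis genes (16.8% of all genes were lower). Higher were 17 of 24 lysosome and autophagy genes and 11 of 15 YAP and TAZ targets (19.1% of all genes were higher). Of the 10 ERK feedback genes, DUSP4 was higher (log2 fold change 1.23, SE 0.24, adjusted p = 0.00462) and 3 were lower, and DUSP6 was not called (-0.77, SE 0.42, adjusted p = 0.188).

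The genes with the highest rise against DMSO were at 0 in all 3 DMSO libraries. PLPP4, a lipid phosphatase, was at 3.08, 8.26 and 13.7 CPM in short washout, at least 59.8-fold (40.5-fold without replicate 3) above a floor of 3 counts per DMSO library. LGR5, a stem cell receptor for R-spondins, was at 12.6, 0.572 and 0.533 CPM, with replicate 1 far above the others, at least 32.6-fold by the mean and at least 3.95-fold without replicate 1. GLIS1, ACTA1 and AC025165.6 were the other 3, at least 34.8-fold to 42.9-fold, and without the highest library at least 25.8-fold to 30.2-fold. DTP levels of PLPP4 (1.87, 10.6 and 11.3 CPM) and LGR5 (6.43, 0.728 and 0.646 CPM) overlapped those of short washout. The lowest 5 were FGFBP1, RNF183, PTGS1, PROM2 and DDIT4. DDIT4, an inhibitor of mTORC1, was at 950, 549 and 642 CPM in DMSO and at 61.7, 116 and 78.5 CPM in short washout (log2 fold change -3.02, SE 0.28, adjusted p = 0.000124), next to 77.7, 82.7 and 88.2 CPM in DTP.

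Between 24 h and 4 days without drug, 0 of 13976 genes (0%) were called, with 824 at an unadjusted p under 0.05, while DESeq2 called 48, 31 higher and 17 lower at 4 days, and limma called 0 (783 unadjusted). This comparison, short washout against DTP and short washout against DMSO share the short washout libraries, so their values are only set side by side. C1R was at 27.992, 24.5 and 19.8 CPM at 4 days, above all short washout libraries (log2 fold change 1.35, SE 0.32, adjusted p = 0.750 in edgeR and 0.0202 in DESeq2). GPNMB was at 94.0, 81.6 and 76.5 CPM, likewise above all of them (0.81, SE 0.13, adjusted p = 0.488 in edgeR and 0.000185 in DESeq2). Both genes were picked for being low in short washout, so higher levels against the same libraries are partly set by that choice.

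The other 3 lines had the same 24 h washout. Their short washout and DTP libraries held 34.68 to 45.11 M estimated counts in PC9 and 41.3 to 49.13 M in H1975, more than in HCC827. Those of HCC2935 held 20.28 to 24.73 M. The part of depth in the counts of called genes was not tested. In PC9, 3221 of 14526 genes (22.2%) were called between short washout and DTP, 1462 of them lower (10.1%), and 2023 (13.9%) with the block. In HCC2935 503 of 14305 (3.52%) were called, and 244 (1.71%) with the block, and in H1975 0 of 14665 (0%), with 1950 at an unadjusted p under 0.05. The same-numbered libraries of H1975 also deviated together (0.24, 0.57 and 0.51), and with the block 1697 of its genes (11.6%) were called. Those of PC9 and HCC2935 did not (-0.15 to -0.02). The common biological coefficient of variation without the block was 0.234 in HCC827, 0.114 in PC9, 0.162 in H1975 and 0.150 in HCC2935. With the block it was 0.120 in HCC827 and 0.0981 in H1975.

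Whether the responses differ was tested as the interaction of line and arm. Between HCC827 and PC9 2 of 15347 genes (0.013%) were called, with 1693 at an unadjusted p under 0.05 and 241 by DESeq2. With the block 76 (0.495%) were called, 29 more positive and 47 more negative in HCC827. Between HCC827 and H1975 0 of 15330 (0%) were called, with 513 at an unadjusted p under 0.05 and 3 by DESeq2, and 4 (0.0261%) with the block. Between HCC827 and HCC2935 0 of 15083 (0%) differed, with 981 at an unadjusted p under 0.05 and 73 by DESeq2, and 3 (0.0199%) with the block.

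The test of the difference from PC9 called ETV4 and HBEGF with the block and neither without it, and the replicate numbers of PC9 do not pair its libraries. On the scale common to all lines, ETV4 was at 14.7, 11.2 and 12.6 CPM in PC9 DTP and at 31.1, 39.5 and 34.7 CPM in PC9 short washout, a rise of 1.45 on the log2 scale (adjusted p = 0.000424). The difference, HCC827 minus PC9, was -2.03 (95% interval -2.72 to -1.34, adjusted p = 0.1003) and -2.0002 with the block (interval -2.51 to -1.49, adjusted p = 0.0137). HBEGF rose by 1.05 on the log2 scale in PC9 (adjusted p = 0.00262), and its difference was -1.09 (interval -1.72 to -0.45, adjusted p = 0.225), called only with the block (adjusted p = 0.0431). DUSP6 rose by 1.15 in PC9 (adjusted p = 0.0191), from 1.75, 1.11 and 2.45 CPM to 3.84, 4.02 and 3.98 CPM. Its difference of -1.59 (interval -3.14 to -0.03) had an adjusted p of 0.443, and of 0.0580 with the block. FOSL1 rose by 1.33 in PC9 (adjusted p = 0.0102), and its difference of -1.24 (interval -2.20 to -0.29) was not called in either fit (adjusted p = 0.338, and 0.144 with the block).

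PIK3IP1, an inhibitor of PI3 kinase and a FOXO target, fell by 1.10 on the log2 scale in PC9 (adjusted p = 0.00169). In HCC827 it was at 33.6, 26.6 and 24.9 CPM in DTP and at 32.9, 22.8 and 23.8 CPM in short washout. The difference of 1.01 with the block passed edgeR's test (adjusted p = 0.0489), and that of 1.00 without it did not (adjusted p = 0.214). C1R differed from PC9 by -1.17 with the block (interval -1.57 to -0.77, adjusted p = 0.0392) and by -1.23 without it (adjusted p = 0.5003). Against H1975, BMF, a BH3-only gene, differed by 1.40 with the block (adjusted p = 0.0142, against 0.999995 without it). It was at 217, 136 and 117 CPM in HCC827 DTP and at 208, 120 and 105 CPM in short washout. Against HCC2935, whose replicate numbers do not pair its libraries, MCM6 differed by -1.15 with the block (adjusted p = 0.0342, against 0.234 without it). The 32 DNA replication genes had a median difference of -0.89 from HCC2935 without the block.

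Lists were described by their medians over the lines. DNA replication genes had a median log2 fold change of 0.15 in HCC827, 0.45 in PC9, 0.66 in H1975 and 1.07 in HCC2935, with 25 of 32 called higher in PC9 (12.1% of all genes there) and 29 of 32 in HCC2935 (2.47%). Mitosis genes had medians of 0.24, 0.18, 0.77 and 0.55 in that order, so PC9 lay below HCC827. ERK feedback genes had medians of -0.19, 0.50, 0.10 and 0.29. FOXO factors and targets had medians of -0.13, -0.49, -0.38 and -0.36, negative in all 4 lines. The interaction called 0 members of these 4 lists without the block against any line, and with it PIK3IP1 and MCM6.

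**Figure D5:**
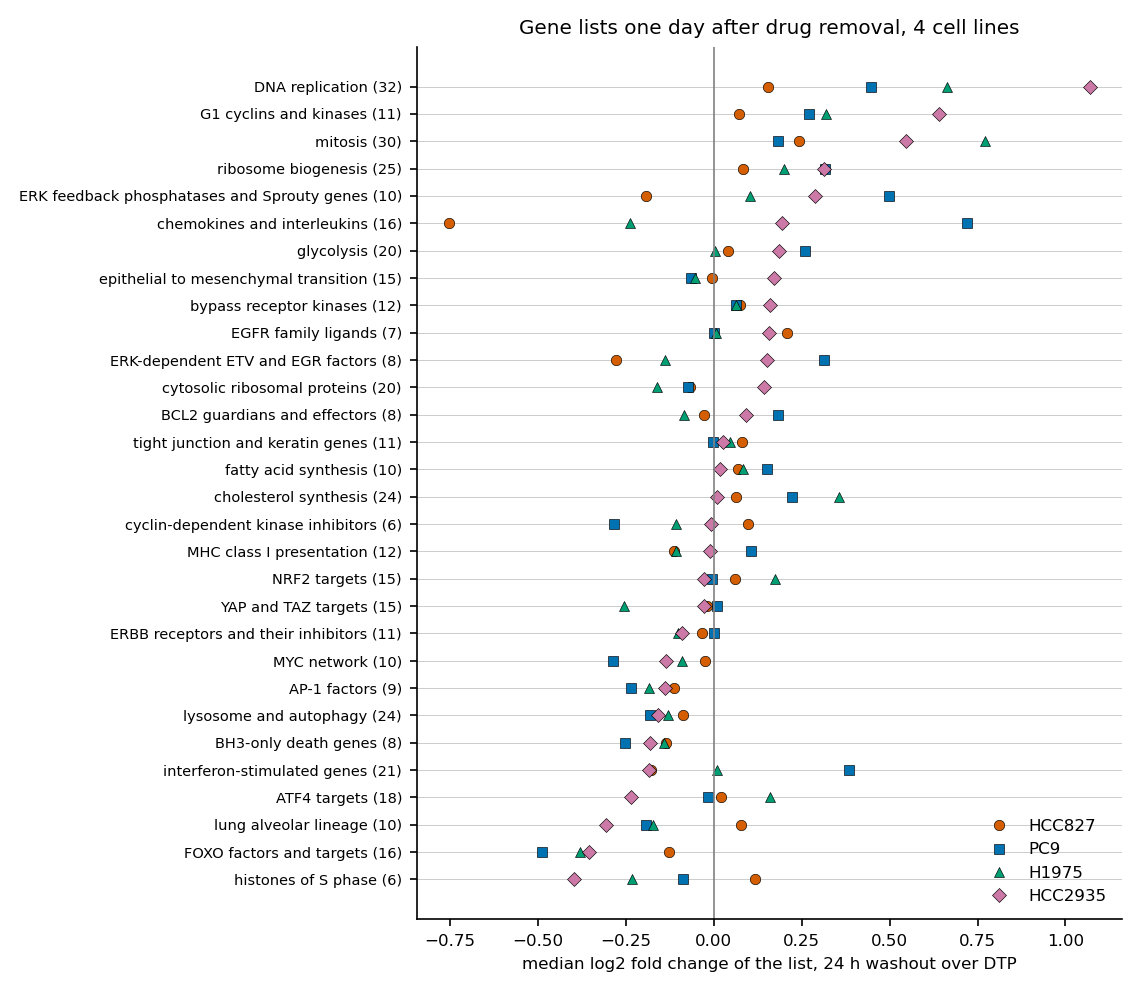
Median log2 fold change, short washout minus DTP, of each gene list (named on one axis, with the number of genes tested in HCC827) in the 4 lines, which are told apart by colour and shape. DNA replication lies at 0.15 in HCC827 and at 0.45, 0.66 and 1.07 in PC9, H1975 and HCC2935, while ERK feedback lies at -0.19 in HCC827 and at 0.10 to 0.50 in the other lines.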

How the data were processed

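HCC827 cells (3 libraries per arm) and 3 further lines were profiled by paired-end mRNA sequencing after TruSeq library preparation. Per the labels' processing notes, the authors used HISAT2 2.1.0, Salmon 0.8.2 and the build hg38, and deposited estimated counts per gene and log2 TPM for 19712 genes. Whether counting used strand, and the annotation, are not given in the sources used here. Estimated counts were rounded and fitted with edgeR 4.0.16 (R 4.3.3; filterByExpr, TMM, glmQLFit, glmQLFTest) over the libraries of each comparison, with Benjamini-Hochberg adjustment over all genes tested and a threshold of 0.05. No model for these libraries is stated by the study. Intervals are 95%. Alternatives used DESeq2 1.42.0, limma 3.58.1 on the deposited log2 TPM (pseudocount 0.01 TPM), other scalings and filters, left-out libraries and a replicate block. Replicate numbers come from the sample titles. Same-numbered HCC827 short washout and DTP libraries deviated from their arm means together (r over 0.1 in all 3 pairs), so the numbers were taken as pairing these samples, although the labels do not say what a number marks. The fit was also run on simulated counts with known folds, drawn without an effect of the replicate number. That run therefore cannot show how the fit handles the spread between replicate numbers seen here.

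The rule for named genes took up to 12 called genes in each direction whose arms did not overlap and whose mean reached 1 CPM (none here), the first member tested and the outermost called members of each of 30 lists, all tested members of the ERK feedback, ETV and EGR, AP-1, ligand and ERBB lists, genes called both in HCC827 and in a difference between lines (none here), and the 5 highest and 5 lowest called against DMSO and between washouts. Every other gene named was chosen after its values were seen, among them C1R, S100A9, CENPF, NCAPG, CDK1, TYMS, MCM6, BCL6, TXNIP, CXCL8, IFI27, PIK3IP1, BMF, MARCHF4 and ANPEP, and the printed promoters of CCNB2, CDK1, NCAPG and MCM6. The members and lists were chosen with earlier results of these data known. Promoters and their build, GRCh38.p14, come from RefSeq. The labels call the replicates biological without naming their origin, so p-values measure the spread between these samples. Of 77 named genes matched in GENCODE 29, 34 share sequence with an opposite-strand gene, 21 with a same-strand gene, and 10 have pseudogenes to which reads could be lost. Some items are not reported here.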

Additional observations from a re-analysis of the deposited data

Results flagged for a closer look

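The response to 24 h without drug differed between HCC827 and PC9, by the test of the difference itself, in 2 of 15347 genes. Levels are on the scale common to all lines. MARCHF4, a membrane-bound ubiquitin ligase, was at 19.2, 21.1 and 29.5 CPM in HCC827 DTP and at 23.7, 24.0 and 28.6 CPM in HCC827 short washout, and it rose by 2.11 on the log2 scale in PC9 (6.603, 6.13 and 7.17 CPM to 28.5, 31.1 and 26.7 CPM). The difference, HCC827 minus PC9, was -1.98 (SE 0.22, 95% interval -2.47 to -1.50, edgeR adjusted p = 0.0110). ANPEP, a surface aminopeptidase, was at 6.86, 8.45 and 9.72 CPM in HCC827 DTP and at 9.24, 11.7 and 9.49 CPM in short washout. In PC9 it fell by 1.30 on the log2 scale, from 159, 183 and 160 CPM to 69.4, 65.5 and 69.8 CPM. The difference was 1.58 (SE 0.18, 95% interval 1.19 to 1.96, adjusted p = 0.0110). With the replicate block, which also pairs PC9 libraries that their numbers do not pair, the adjusted p was 0.00387 for MARCHF4 and 0.00676 for ANPEP. Neither was called with all 60 libraries in the fit (adjusted p = 0.143 and 0.170), nor without PC9 DTP replicate 1 or 2 or any PC9 short washout library (0.0599 to 0.0714 for both), while the differences kept their sign in each of these fits. Neither was called in HCC827 alone, where the fit without the block called 0 genes.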

How the results depend on the processing

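The precision is limited to 3 libraries per arm, and why few genes were called was not tested. Short washout against DTP in HCC827 gave 0 calls under every alternative without the replicate block (96 to 498 genes at an unadjusted p under 0.05 when libraries were left out). With the block there were 2 calls, with DESeq2 and the block 16, and with the block and a replicate number left out 0 to 40 (9 without replicate 1, 0 without replicate 2, 40 without replicate 3). The block gave 76, 4 and 3 calls for the difference from PC9, H1975 and HCC2935, 1697 in place of 0 in H1975 alone, 2023 in place of 3221 in PC9 alone and 244 in place of 503 in HCC2935 alone, where only H1975 numbers pair the libraries. For short washout against DMSO, long against short washout and acute against DMSO it moved no count by over 1.5 times. At an adjusted p under 0.01, short washout against DMSO gave 2770, acute against DMSO 3564 and the difference from PC9 0. DESeq2 gave 48 for long against short washout and 241, 3 and 73 for the differences from PC9, H1975 and HCC2935. limma gave 5 for PC9 and 2 for HCC2935, and all 60 libraries in 1 fit gave 1 (neither MARCHF4 nor ANPEP) and 10. Leaving out libraries gave 0 to 3 for long against short washout (3 without short washout replicate 2), 0 to 8 for PC9 (8 without HCC827 DTP replicate 3, 7 without its replicate 1, 0 without PC9 DTP replicate 1 or 2 or any PC9 short washout library) and 0 to 2 for HCC2935 (2 without HCC827 DTP replicate 3). The causes were not tested. Of 82 named genes, 57 changed the sign of their short washout change under some alternative, as did 22 of 30 list medians. These alternatives include fits without the block that leave out a single library and so leave a pair incomplete. A change of sign there does not measure the change within pairs.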
